A study of Mus musculus with 12 samples.

Results

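The 10 genes described here are receptors for the epidermal and fibroblast growth factors, together with proteins that feed or restrain those receptors: Egfr, Erbb2, Erbb3, Erbb4, Errfi1, Lrig1, Hbegf, Fgfr1, Fgfr2 and Fgfr3. They were taken by name from a table of 40597 loci and matched 11 loci, since Fgfr2 is named in 2 loci that each join it to another gene. Of the 11 loci, 10 had a mean of at least 1 FPKM (fragment abundance scaled by transcript length and library size) over the 12 libraries and were tested, and Erbb3 did not. All libraries came from primary hypothalamic neurospheres, floating spheres of dividing neural stem and progenitor cells, of C57Bl/6 mice at embryonic day 14.5. The 4 groups, with 3 biological replicates each, were male cultures and female cultures given either 100 nM dexamethasone, a synthetic glucocorticoid, or the same volume of ethanol as vehicle. Exposure was at passage 3 and lasted 4 hours. The sources used here do not say whether replicates came from separate litters or cultures, so p-values measure the spread between these samples. The cultures are a dissociated and passaged fetal population, and the labels name no mutation or transgene in any group.

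EGF-family ligands bind the ErbB receptors, which dimerise, phosphorylate each other and start the Ras, Raf, MEK and ERK cascade as well as PI3-kinase signalling. FGF ligands, held by heparan sulphate, do the same through the FGF receptors. Both pathways switch on their own inhibitors, and both growth factors are widely used to keep neural stem cells dividing as neurospheres. Which growth factors the medium of these cultures held is not stated in the sources used here. Dexamethasone binds the glucocorticoid receptor, a transcription factor that activates some genes and represses others.

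Averaged over the sexes, the limma test called 2 of the 10 tested loci under dexamethasone, in opposite directions. With 1 library left out in turn, the call of Errfi1 held in 12 of 12 fits. That of Egfr, close to the threshold (adjusted p = 0.0450), held in 2 of 12. Errfi1, the cytoplasmic protein that binds the kinase domain of ErbB receptors and blocks it, rose from 5.34 ± 0.808 FPKM (SD, n = 6) under vehicle to 16.7 ± 3.98 FPKM (SD, n = 6). Egfr, the receptor for EGF and the most abundant ErbB transcript in these cultures, fell from 165 ± 15.0 to 129 ± 9.42 FPKM (SD, n = 6 each). Male and female libraries are pooled in these means. Of all 14931 tested loci, 1.53% were called in this comparison, 1.15% higher and 0.388% lower.

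The starts of both genes are shown because these were the members that passed the test. The windows run from 250 bases before to 50 bases after an annotated start, 5′ to 3′ on the strand of the gene, in RefSeq's sequence of GRCm38.p6. Errfi1 has 2 annotated starts, with windows at chr4:150853546-150853845 (plus strand, window 1, GC content 42.0%) and chr4:150854820-150855119 (plus strand, window 2, GC content 66.7%). Window 1 ends before chr4:150853919, where Errfi1 starts in the gene coordinates used below (GENCODE M21), so the 2 sources differ on this start. The window of Egfr is chr11:16751953-16752252 (plus strand, GC content 62.3%). Capitals mark the cAMP response element TGACGTCA, which begins 51 bases before the second Errfi1 start, and the TATA box TATAAA, which begins 28 bases before it.
Errfi1 window 1: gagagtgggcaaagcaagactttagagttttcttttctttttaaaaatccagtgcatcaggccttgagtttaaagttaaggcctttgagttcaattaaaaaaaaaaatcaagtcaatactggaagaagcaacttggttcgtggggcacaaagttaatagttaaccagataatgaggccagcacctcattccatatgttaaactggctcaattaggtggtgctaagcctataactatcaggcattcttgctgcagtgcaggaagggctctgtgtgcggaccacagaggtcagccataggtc
Errfi1 window 2: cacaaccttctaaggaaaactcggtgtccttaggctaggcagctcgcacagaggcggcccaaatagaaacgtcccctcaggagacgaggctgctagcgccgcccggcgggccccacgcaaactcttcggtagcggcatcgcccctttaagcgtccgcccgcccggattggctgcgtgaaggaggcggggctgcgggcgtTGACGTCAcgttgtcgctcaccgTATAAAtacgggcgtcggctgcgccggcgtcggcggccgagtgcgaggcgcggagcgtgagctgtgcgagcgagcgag
Egfr window: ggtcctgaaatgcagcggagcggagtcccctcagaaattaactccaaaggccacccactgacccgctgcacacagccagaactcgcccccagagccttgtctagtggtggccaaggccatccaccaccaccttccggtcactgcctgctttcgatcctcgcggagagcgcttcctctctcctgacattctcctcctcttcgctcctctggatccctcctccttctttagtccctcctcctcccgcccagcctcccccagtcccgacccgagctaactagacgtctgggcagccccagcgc
A promoter window of 300 bases was at hand for 7 of the 10 genes, 9 windows in all, and for no start of Erbb3, Hbegf or Fgfr1. The glucocorticoid receptor half-site AGAACA, its full site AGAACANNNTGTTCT and the AP-1 site TGANTCA were searched on both strands, and the half-site is contained in the full site. None of the 3 occurred in any of the 9 windows, Egfr and Errfi1 included. Of 32817 promoter windows of this length, 19.0% hold the half-site, 0.00914% the full site and 7.81% the AP-1 site. TGACGTCA is in 1.79% and TATAAA in 13.6% of them, and among the 9 windows each was found only in the second Errfi1 window. These 2 motifs were chosen after the sequence had been read. A match or its absence describes the letters in the window and no more.

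The table gives abundances without counts, which leaves absolute depth unknown. The value of 1 fragment was estimated from short non-coding RNA loci, as the most common ratio of a library to male vehicle library 3. By this estimate it was 1 to 1.61 times that of the reference. In male dexamethasone library 1 the estimate rests on 61 of 385 loci within a log ratio of 0.005. Between 13755 and 14826 loci per library exceeded 1 FPKM. In male vehicle library 3, 75.0% of the summed FPKM fell on unnamed loci, and in male dexamethasone library 2 this was 53.1%, against 11.6% to 38.6% elsewhere. Xist, which females express from the inactive X, was at 136 to 328 FPKM in female libraries, 14.1 in male dexamethasone library 2, 3.04 in male vehicle library 2 and at most 0.0466 in the other 4 male libraries. The averaged calls of members and pathway genes below are therefore also given without male dexamethasone library 2 and either of these vehicle libraries. Beside the labelled cell type, 11 neural stem cell markers were read, all of them tested. Their summed level was 6103 to 7472 FPKM under vehicle and 5834 to 7543 FPKM under dexamethasone. Fabp7 (3503 FPKM over the 12 libraries) and Vim (2497) made up most of this sum. The sum therefore says little about lower markers such as Nr2e1 (5.01 FPKM) and Prom1 (1.88).

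Under vehicle the members spanned the range from barely detected to abundant. Because FPKM are scaled by transcript length, levels can be set side by side between genes. Egfr, at 165 ± 15.0 FPKM (SD, n = 6), and Lrig1, a membrane protein that restrains ErbB receptors, at 163 ± 9.98 FPKM, were the highest and overlapped each other. Below them, with no overlap, came the locus joining Ctbp2 to Fgfr2 at 76.8 ± 7.75 FPKM, Hbegf at 64.8 ± 28.6, Fgfr3 at 51.1 ± 13.3 and Fgfr1 at 50.5 ± 6.97 FPKM. Each of these 4 overlapped its neighbour in that order. The locus joining Fgfr2 to Zranb1 stood at 18.7 ± 0.723 FPKM and Erbb4 at 12.2 ± 3.03 FPKM, each apart from its neighbours. Errfi1 at 5.34 ± 0.808 and Erbb2 at 4.32 ± 0.762 FPKM overlapped. Erbb3 was last, with no library above 0.158 FPKM.

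The spread between vehicle libraries differed widely among the members. The coefficient of variation was 3.86% for the Fgfr2 and Zranb1 locus, 6.13% for Lrig1 and 9.10% for Egfr. It reached 44.1% for Hbegf and 26.0% for Fgfr3. Under dexamethasone the order shifted in the middle: Errfi1, at 11.0 to 20.8 FPKM, overlapped Erbb4 (9.42 to 15.0 FPKM) and the Fgfr2 and Zranb1 locus (17.7 to 23.7 FPKM) and no longer overlapped Erbb2 (2.09 to 3.61 FPKM).

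**Figure D1:**
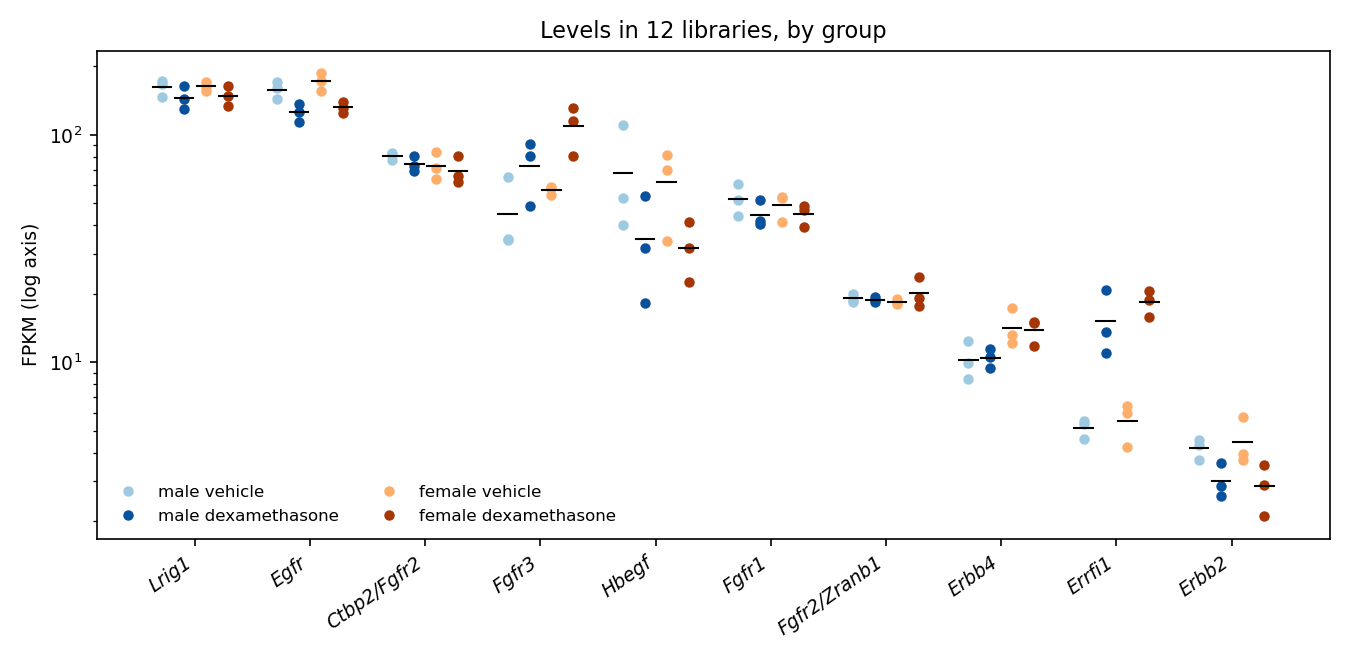
Levels of the 10 tested member loci in the 12 libraries, with FPKM on a log axis and the 4 groups of 3 libraries side by side at each locus; points are libraries and short black lines the group means. Erbb3, at no more than 0.158 FPKM, is not drawn. All 6 dexamethasone libraries of Errfi1 lie between 11.0 and 20.8 FPKM, above the vehicle libraries at 4.25 to 6.40, and those of Egfr lie at 113.3 to 139.6 FPKM, below 143.4 to 187.2.

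Errfi1, also called Mig6, lies at chr4:150853919-150868892 on the plus strand (GENCODE M21, GRCm38). Male vehicle libraries held 5.50, 5.37 and 4.59 FPKM, and male dexamethasone libraries 20.8, 13.6 and 11.0 FPKM, in the order of replicates 1 to 3. In females, vehicle libraries held 5.95, 4.25 and 6.40 FPKM, and female dexamethasone libraries 20.5, 18.8 and 15.7 FPKM. Every treated library thus exceeded every vehicle library, in both sexes, and the male dexamethasone libraries were the most spread. The mean rose 3.14 times. On the scale of log2(FPKM + 1), which understates changes of low genes, the averaged effect of dexamethasone was 1.46 (SE 0.15, limma adjusted p = 0.000879), rank 41 of all tested loci by p-value. No alternative ended this call, with adjusted p-values from 0.000264 to 0.0132. Without male dexamethasone library 2 and male vehicle library 3 the effect was 1.45 (adjusted p = 0.0127), and without male dexamethasone library 2 and male vehicle library 2 it was 1.50 (adjusted p = 0.0132). The antisense gene 1700045H11Rik that overlaps Errfi1 is listed at 0 in all 12 libraries.

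The rise of Errfi1 was also called within each sex, less securely. In males, group means were 5.15 ± 0.491 and 15.1 ± 5.09 FPKM (SD, n = 3), a log2 effect of 1.35 (SE 0.21, adjusted p = 0.0331). In females they were 5.53 ± 1.13 and 18.4 ± 2.44 FPKM, a log2 effect of 1.57 (SE 0.21, adjusted p = 0.0108). The difference of the 2 effects, female minus male, was 0.22 (SE 0.30, adjusted p = 1), so no difference between the sexes was called. Over all tested loci 0.315% were called in males (0.288% higher) and 0.482% in females (0.449% higher). The male call was lost on leaving out 10 of the 12 libraries in turn (adjusted p = 0.0508 to 0.141) and held without male dexamethasone library 3 (0.0210) or female vehicle library 2 (0.0370); the female call was lost without female dexamethasone library 1 (0.0669) or 2 (0.0504). Without male dexamethasone library 2 and male vehicle library 3 or 2, the male effect was 1.33 (adjusted p = 0.260) or 1.42 (adjusted p = 0.288) and the female call held (adjusted p = 0.0443 and 0.0478).

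Egfr lies at chr11:16752203-16918158 on the plus strand. Male vehicle libraries held 143.4, 160.4 and 170.7 FPKM, and male dexamethasone libraries 113.3, 136.7 and 126.5 FPKM. Under vehicle the female libraries held 156.5, 187.2 and 171.7 FPKM, and female dexamethasone libraries 125.3, 131.2 and 139.6 FPKM. All treated libraries lay below all vehicle libraries, with a gap of a few FPKM between the highest of one and the lowest of the other. The ratio of the means was 0.781, and the averaged log2 effect was −0.35 (SE 0.07, adjusted p = 0.0450, rank 221). Within the sexes the effect was −0.33 in males (adjusted p = 0.457) and −0.37 in females (adjusted p = 0.264), neither called. In bulk RNA, fewer cells that carry a transcript and less of it per cell cannot be told apart.

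The Egfr call was close to its threshold. With 1 library left out it held only without male vehicle library 1 (adjusted p = 0.0471) or female vehicle library 1 (0.0464), and otherwise lay between 0.0535 and 0.128. Without male dexamethasone library 2 and male vehicle library 3 the effect was −0.36 (adjusted p = 0.121), and −0.38 (0.147) without that library and male vehicle library 2; over all alternatives the adjusted p ran from 0.0210 to 0.166 and the effect stayed below 0.

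The other ErbB receptors were far lower than Egfr. Erbb2, a receptor with no ligand of its own that serves as dimer partner (chr11:98412470-98437716, plus strand), stood at 3.69, 4.33 and 4.55 FPKM in male vehicle and 2.56, 2.86 and 3.61 FPKM in male dexamethasone libraries. Among female libraries, vehicle gave 3.93, 3.72 and 5.71 FPKM and dexamethasone gave 2.89, 2.09 and 3.53 FPKM. As for Egfr, the treated and the vehicle libraries did not overlap, and the ratio of the means was 0.677. The averaged log2 effect was −0.44 (SE 0.13, adjusted p = 0.174), which did not pass. Over all alternatives the adjusted p ran from 0.0234, with libraries of the same sex and number taken as pairs, to 0.510. Erbb2 overlaps Mien1, a gene on the opposite strand at 22.5 to 38.7 FPKM, and whether the authors' counting used strand is not stated in the sources used here. Non-overlap of the 6 treated and 6 vehicle libraries was seen for Errfi1, Egfr and Erbb2, 3 of the 10 tested member loci, against 2.22% of all tested loci (1.41% higher and 0.804% lower under dexamethasone). Because the choice of members followed earlier results of these data, this comparison of shares is a description.

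Erbb4, the neuregulin receptor (chr1:68032186-69108059, minus strand), gave no such separation. Its male vehicle libraries held 8.42, 12.4 and 9.89 FPKM and its male dexamethasone libraries 11.4, 10.5 and 9.42 FPKM. The female vehicle values were 13.2, 17.2 and 12.1 FPKM, and those under dexamethasone 14.8, 15.0 and 11.7 FPKM. Treated and vehicle libraries overlapped throughout, and the averaged log2 effect was 0.0059 (SE 0.12, adjusted p = 0.992), with a sign that turned under another scaling and with array weights. Levels were higher in the female libraries on average: the log2 difference, female minus male, was 0.43 under vehicle (SE 0.16, adjusted p = 0.892) and 0.37 under dexamethasone (SE 0.16, adjusted p = 1). Neither passed. At an unadjusted p under 0.05, Erbb4 was the only member past the threshold in these comparisons (1 of 10 in each), where 4.88% of all tested loci passed under vehicle and 2.94% under dexamethasone.

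Erbb3, the ErbB family member with a weak kinase (chr10:128567523-128589652, minus strand), was close to absent from the table. Its male libraries were at 0.0381 to 0.0620 FPKM under vehicle and at 0.0859, 0 and 0.0471 FPKM under dexamethasone. Female libraries were at 0.0484 to 0.158 FPKM under vehicle and 0.0675 to 0.141 FPKM under dexamethasone. It fell under the filter and was not tested, and a listed 0 can be a failed estimate in a table of this kind.

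Summed over the 4 receptors, ErbB transcripts came to 182 ± 17.6 FPKM under vehicle and 144 ± 9.74 FPKM under dexamethasone (SD, n = 6 each). Egfr made up 90.9 ± 1.02% of that sum under vehicle and 89.5 ± 1.37% under dexamethasone, with overlapping ranges of 89.9 to 92.2% and 87.6 to 91.1%. The ratio of receptor to inhibitor moved much further. There were 31.7 ± 7.34 FPKM of Egfr for each FPKM of Errfi1 under vehicle (26.1 to 44.0 in single libraries) and 8.16 ± 2.38 under dexamethasone (5.44 to 11.5). The ranges did not overlap. Both genes of this ratio were called above, so it describes the same change and was not tested.

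**Figure D2:**
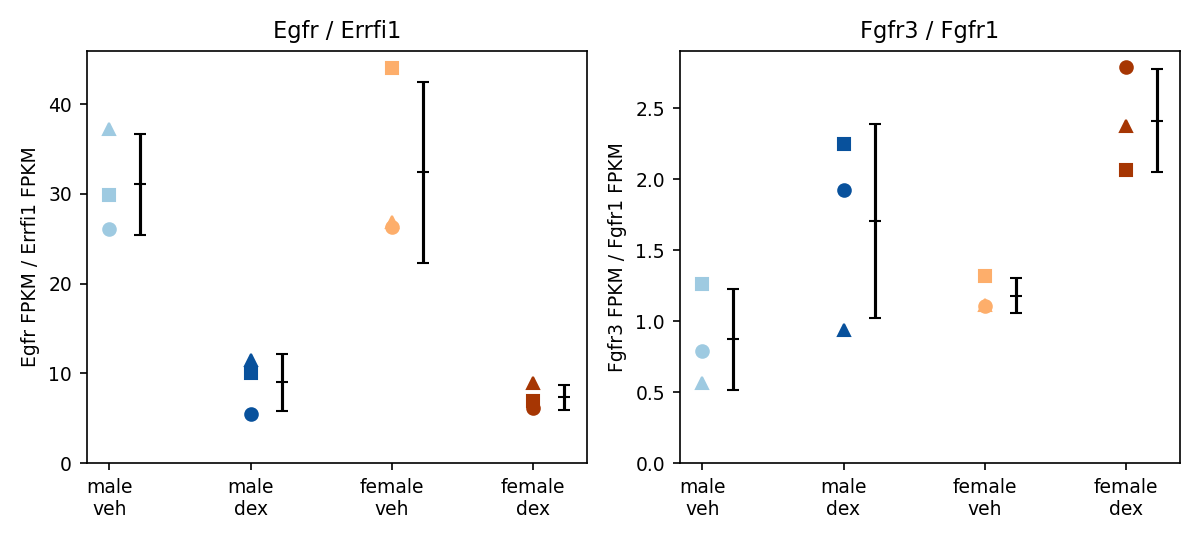
Ratios within each library, on linear axes, of Egfr to Errfi1 FPKM and of Fgfr3 to Fgfr1 FPKM in the 4 groups; points are libraries and bars the mean with its SD. The Egfr to Errfi1 ratio is 26.1 to 44.0 in vehicle libraries and 5.44 to 11.5 in dexamethasone libraries, while the Fgfr3 to Fgfr1 ranges, 0.568 to 1.32 and 0.941 to 2.79, overlap.

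Lrig1, whose product promotes the degradation of ErbB receptors (chr6:94604529-94700158, minus strand), was as abundant as Egfr. Male vehicle libraries held 172.2, 168.0 and 146.2 FPKM and male dexamethasone libraries 143.3, 163.7 and 130.5 FPKM. In female cultures, vehicle libraries held 171.2, 156.6 and 162.0 FPKM and female dexamethasone libraries 147.7, 134.2 and 163.6 FPKM. The groups overlapped, and the averaged log2 effect was −0.15 (SE 0.08, adjusted p = 0.432); it was −0.23 without male dexamethasone library 2 and male vehicle library 3. Of the 2 members whose products act against ErbB receptors, Errfi1 thus passed the test and Lrig1 did not. The ratio of Lrig1 to Egfr was 0.996 ± 0.142 under vehicle and 1.14 ± 0.0968 under dexamethasone (SD, n = 6 each). Slc25a26 on the opposite strand, at 2.38 to 3.86 FPKM, overlaps Lrig1.

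Hbegf encodes a membrane-anchored ligand of Egfr and Erbb4 that is released by shedding (chr18:36504927-36515805, minus strand). Its male vehicle libraries held 40.3, 110.6 and 52.7 FPKM and its male dexamethasone libraries 18.2, 53.9 and 31.9 FPKM. Its female vehicle libraries held 70.1, 34.2 and 81.3 FPKM and female dexamethasone libraries 31.8, 22.6 and 41.2 FPKM. The treated and vehicle ranges overlapped, and replicates of a group differed widely among themselves, with male vehicle library 2 the highest of all 12. The mean was 64.8 ± 28.6 FPKM under vehicle and 33.3 ± 12.9 under dexamethasone, a ratio of 0.513. The averaged log2 effect, −0.92 (SE 0.35, adjusted p = 0.290), did not pass. Over all alternatives the adjusted p ran from 0.00861, with libraries of the same sex and number taken as pairs, to 0.499. Each treated library was below the vehicle library of the same sex and number, with ratios of 0.451 to 0.661.

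That comparison by number is a description, since the labels do not say that a number marks a shared culture, litter or day. By this measure the treated library lay on the same side of its vehicle counterpart in 6 of 6 cases at 7 of the 10 tested member loci, against 19.9% of all tested loci (9.83% higher and 10.1% lower). Here too the members had been chosen with earlier results of these data known. Higher in 6 of 6 were Errfi1, with ratios of 2.40 to 4.42, and Fgfr3, with 1.39 to 2.32. Lower in 6 of 6 were Hbegf, Erbb2 (0.562 to 0.793), Egfr (0.701 to 0.852), Fgfr1 (0.779 to 0.951) and the locus joining Ctbp2 to Fgfr2 (0.884 to 0.985). Lrig1 was lower in 5 of 6, and Erbb4 and the locus joining Fgfr2 to Zranb1 in 4 of 6.

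**Figure D3:**
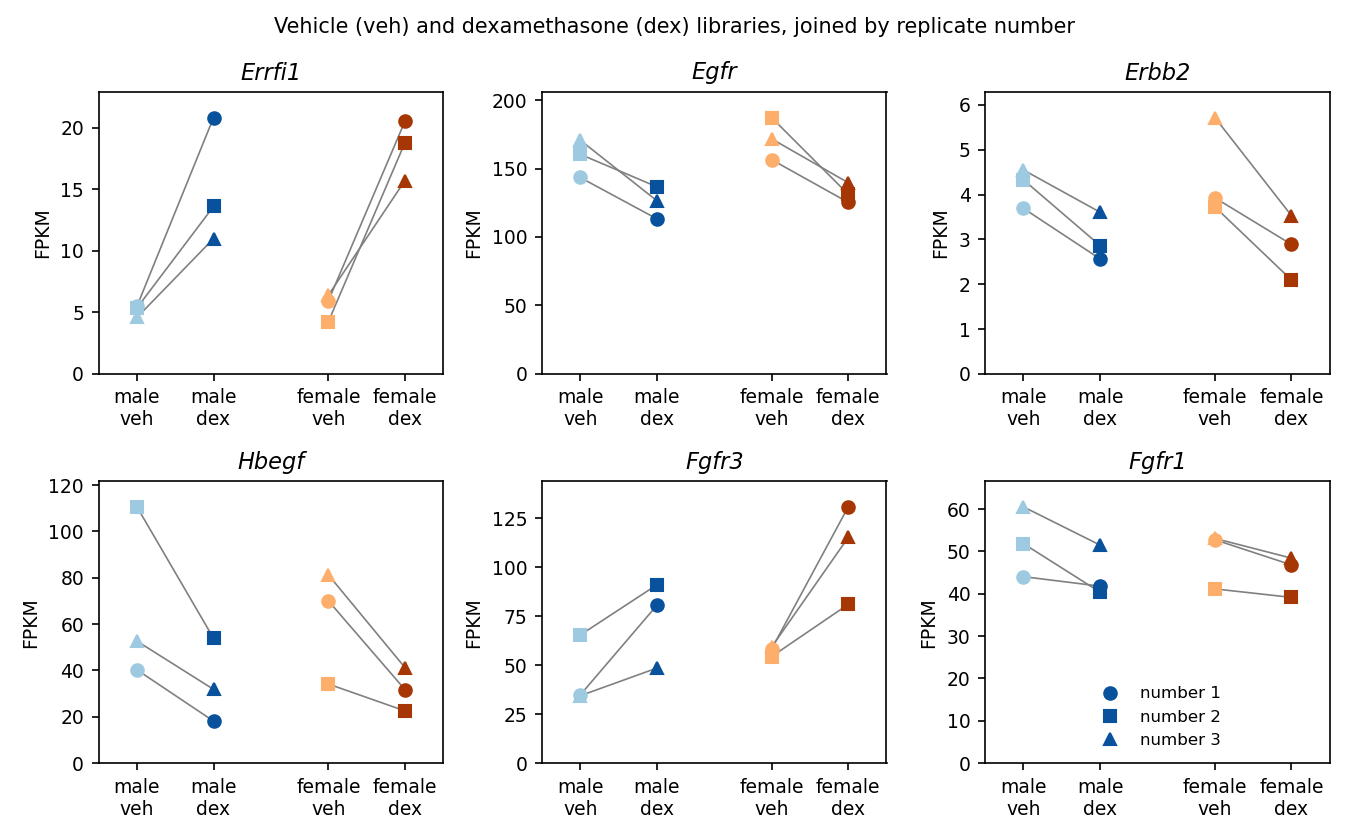
FPKM, on linear axes that start at 0, of 6 members (Errfi1, Egfr, Erbb2, Hbegf, Fgfr3 and Fgfr1), with a line joining each vehicle library to the dexamethasone library of the same sex and replicate number. All 6 lines rise for Errfi1 and Fgfr3 and all 6 fall for the other members drawn, although the Hbegf, Fgfr3 and Fgfr1 libraries overlap between treatments.

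Among the FGF receptors, Fgfr3 showed the widest difference. It lies at chr5:33721674-33737068 on the plus strand, encodes a receptor tyrosine kinase and is known from neural progenitors and astrocytes. Its male vehicle libraries held 34.7, 65.3 and 34.4 FPKM and its male dexamethasone libraries 80.4, 90.9 and 48.5 FPKM. Female values under vehicle were 58.3, 54.4 and 59.2 FPKM and under dexamethasone 130.7, 81.0 and 115.1 FPKM. The female groups were apart, while male dexamethasone library 3 lay below male vehicle library 2. Means were 51.1 ± 13.3 and 91.1 ± 28.9 FPKM (SD, n = 6 each), a ratio of 1.78. The averaged log2 effect was 0.80 (SE 0.21) with an adjusted p of 0.121, which did not pass, nor did the effect in males (0.71, adjusted p = 0.717) or females (0.89, adjusted p = 0.410). Leaving out male vehicle library 2 brought the averaged effect past the threshold, at 0.95 with an adjusted p of 0.0485. Over all alternatives the adjusted p ran from 0.0307, with libraries of the same sex and number taken as pairs, to 0.428.

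Fgfr1, the main receptor for FGF2 in neural stem cells (chr8:25513654-25575718, plus strand), stayed nearer its vehicle level. Male vehicle libraries held 44.0, 51.8 and 60.5 FPKM and male dexamethasone libraries 41.8, 40.4 and 51.5 FPKM. For females the vehicle libraries held 52.7, 41.1 and 53.1 FPKM and female dexamethasone libraries 46.8, 39.1 and 48.4 FPKM. The groups overlapped, and the averaged log2 effect was −0.17 (SE 0.11, adjusted p = 0.520); it was −0.082 without male dexamethasone library 2 and male vehicle library 3. There were 1.03 ± 0.291 FPKM of Fgfr3 for each FPKM of Fgfr1 under vehicle and 2.06 ± 0.623 under dexamethasone (SD, n = 6 each), with overlapping ranges. The antisense gene Gm16159, at 2.94 to 5.89 FPKM, overlaps Fgfr1.

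The annotated span of Fgfr2, chr7:130162451-133123350 on the minus strand, also overlaps Zranb1 and Ctbp2, the genes joined to it. Other genes within this span were not read. The promoter window at hand lies inside that span, at chr7:130266759-130267058, so the span is longer than a transcript from that start. Fgfr2 could not be read alone, since the table joins it to another gene at each of its loci. The locus that joins it to Zranb1, a gene on the opposite strand, held 17.7 to 23.7 FPKM over the 12 libraries, with an averaged log2 effect of 0.050 (SE 0.07, adjusted p = 0.777) that turned negative when libraries were rescaled to the same sum over named loci. The locus that joins it to Ctbp2, on the same strand, held 61.8 to 83.7 FPKM, with an effect of −0.097 (SE 0.09, adjusted p = 0.654). This small effect ran from −0.046 without female vehicle library 3 to −0.15 without female dexamethasone library 3 and was −0.31 under that rescaling. How much of either value is Fgfr2 cannot be told from the table. Vehicle and dexamethasone libraries overlapped at both loci.

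**Figure D4:**
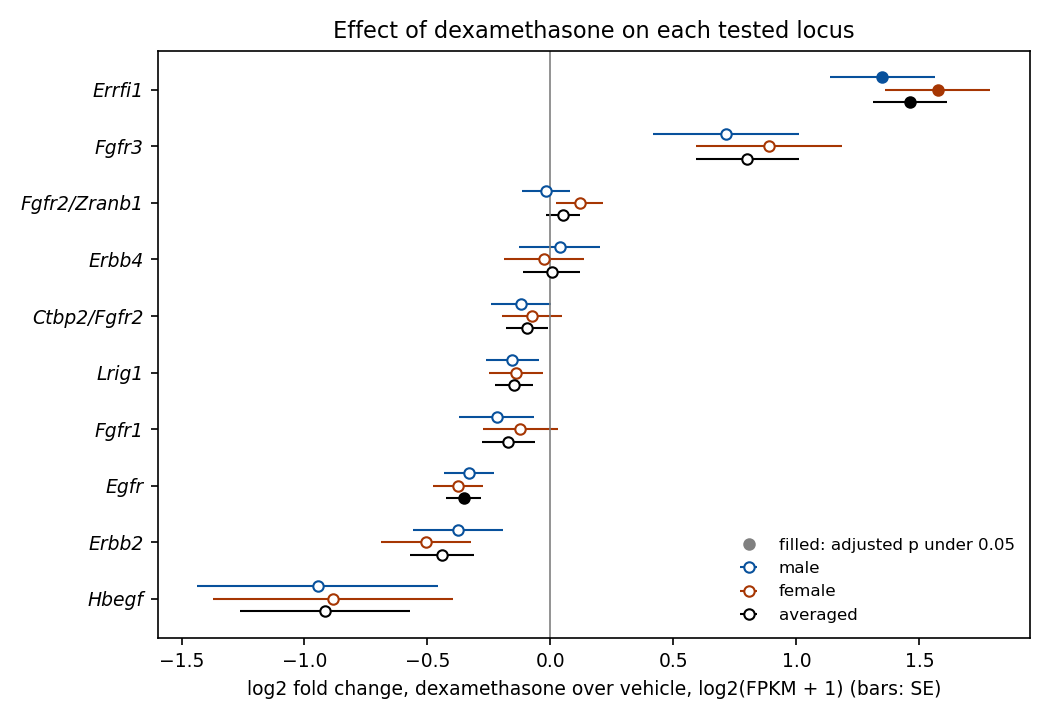
Effect of dexamethasone on the 10 tested member loci as log2 fold change of FPKM + 1, in males, in females and averaged over the sexes, with bars of 1 SE; filled points passed the limma test at an adjusted p under 0.05. Errfi1 is filled in all 3 comparisons, Egfr only in the averaged one (−0.35), and no other locus is filled; the averaged values of Erbb4 (0.0059) and of the Fgfr2 and Zranb1 locus (0.050) turned sign under another scaling.

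Over the 10 tested member loci the median averaged log2 effect was −0.12, against −0.0067 over all tested loci. In males the medians were −0.14 and −0.0045, and in females −0.099 and −0.0028. At an unadjusted p under 0.05, 5 of the 10 member loci passed in the averaged comparison, 2 higher and 3 lower, where 13.6% of all tested loci did (6.86% higher and 6.74% lower). These were Errfi1, Egfr, Fgfr3, Erbb2 and Hbegf, of which the last 3 did not pass after adjustment. Since the members were chosen with earlier results of these data known, a share above that of all loci is no independent evidence. The interaction called none of the 10 with limma, against 0.0335% of all tested loci, and none had an unadjusted p under 0.05, against 1.47% of all tested loci. Its log2 estimates, female minus male, ran from −0.13 for Erbb2 to 0.22 for Errfi1, with standard errors of 0.14 to 0.69, so differences between the sexes of that size were not detectable here. With the sexes compared directly, limma called none of the 10 under either treatment; the background was 0.0737% under vehicle and 0.0670% under dexamethasone.

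The wider pathway was read in 7 lists of genes, chosen by role and with earlier results of these data known. Over all tested loci, limma called 1.53% in the averaged comparison, and 13.6% had an unadjusted p under 0.05. Of the EGF-family ligands other than Hbegf, 3 of 10 were tested, and limma called none in either direction (0 at an unadjusted p under 0.05). These were Nrg4, at a mean of 4.31 FPKM over the 12 libraries, Areg at 3.69 and Tgfa at 2.19 FPKM. Hbegf was thus the ligand of this family with the highest FPKM in the cultures. The list of FGF ligands holds 22 FGF family genes, not all of which encode receptor ligands. Of the 22, 6 were tested, 5 others are listed at 0 in all 12 libraries, and limma called none (1 at an unadjusted p under 0.05). That one was Fgf2, the ligand used to grow neural stem cells, in a locus joined with Bbs12: it held 6.58 ± 1.69 FPKM under vehicle and 9.53 ± 1.71 under dexamethasone (log2 effect 0.49, adjusted p = 0.275, and 0.32 without male dexamethasone library 2 and male vehicle library 3). Fgf1 stood at 8.08 and Fgf11 at 4.17 FPKM over the 12 libraries. The medians of the averaged log2 effect were 0.019 for the EGF-family ligands and −0.080 for the tested FGF family genes.

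Among the other FGF receptors and co-receptors, limma called 0 of 7 tested genes of 11, against 1.53% of all tested loci. At an unadjusted p under 0.05 there were 2, against 13.6% of all tested loci, and the median was −0.15. Sdc4, a syndecan that carries heparan sulphate, held 71.1 ± 15.3 FPKM under vehicle and 138 ± 31.0 under dexamethasone (SD, n = 6 each). Its log2 effect of 0.94 (SE 0.20, adjusted p = 0.0523) just missed the threshold and passed without male dexamethasone library 3 (adjusted p = 0.0190) and in 5 of 12 other alternatives, in a range of 0.00163 to 0.216 over all of them. Fgfrl1, an FGF receptor without a kinase domain, held 20.5 ± 4.66 and 14.8 ± 2.81 FPKM (log2 effect −0.43, adjusted p = 0.179). Of 6 tested genes for ligand shedding, limma called none, and the median was −0.18. At an unadjusted p under 0.05 there were 2 of the 6, where 13.6% of all tested loci passed. The sheddase Adam10 held 28.8 ± 3.70 FPKM under vehicle and 21.5 ± 5.20 under dexamethasone (log2 effect −0.43, adjusted p = 0.270). The metalloproteinase inhibitor Timp3 held 17.0 ± 5.51 and 12.5 ± 1.70 FPKM (log2 effect −0.38, adjusted p = 0.285). Female vehicle library 2 was the highest of the 12 for Timp3, at 27.9 FPKM, and without it the effect was −0.25 (adjusted p = 0.280). Adam9, the most abundant of them, stood at 43.6 FPKM over the 12 libraries.

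Of 28 adaptors and kinases between receptor and nucleus, all tested, 1 rose, 1 fell and 26 were not called, where 1.15% of all tested loci rose and 0.388% fell. At an unadjusted p under 0.05, 3 were higher and 4 lower, against 6.86% and 6.74% of all tested loci, and the median was −0.053. Pik3r1, the regulatory subunit of PI3-kinase, rose from 51.0 ± 9.91 to 95.3 ± 9.68 FPKM (SD, n = 6 each; log2 effect 0.91, SE 0.14, adjusted p = 0.0106). Gab1, the docking protein that links both receptor families to PI3-kinase and ERK signalling, fell from 18.1 ± 3.00 to 11.8 ± 1.34 FPKM (log2 effect −0.58, SE 0.11, adjusted p = 0.0279). The level of Akt1, the most abundant gene of the list, was 108 FPKM over the 12 libraries. Pik3r1 kept its call on leaving out any 1 library (adjusted p = 0.00694 to 0.0346) but not without male dexamethasone library 2 and male vehicle library 3 (0.0852) or male vehicle library 2 (0.0504). The Gab1 call held without male dexamethasone library 1 (0.0378), female vehicle library 1 (0.0189) or 2 (0.0362) or female dexamethasone library 3 (0.0410), and was lost without any of the other 8 (0.0547 to 0.0801) and in the same omissions of 2 libraries (0.151 and 0.148).

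Of 22 genes for receptor restraint and turnover besides Errfi1 and Lrig1, 21 were tested, 1 rose and 20 were not called, where 1.15% of all tested loci rose and 0.388% fell. At an unadjusted p under 0.05, 1 was higher and 5 were lower, against 6.86% and 6.74% of all tested loci, and the median was −0.11. Ptprj, a receptor-type tyrosine phosphatase that dephosphorylates Egfr, rose from 10.1 ± 1.19 to 18.3 ± 2.58 FPKM (SD, n = 6 each; log2 effect 0.80, SE 0.10, adjusted p = 0.00358) and also passed in females alone (0.93, adjusted p = 0.0263). It kept its averaged call on leaving out any 1 library and in both omissions of 2 libraries (0.0383 and 0.0182). Nf1, which switches Ras off, held 23.3 ± 2.52 FPKM under vehicle and 17.1 ± 1.92 under dexamethasone (log2 effect −0.43, SE 0.09, adjusted p = 0.0620) and passed without male dexamethasone library 1 (0.0428, in a range of 0.0381 to 0.251 over all alternatives). Spry2, an ERK-induced feedback inhibitor, held 117 ± 15.1 and 94.4 ± 11.1 FPKM (log2 effect −0.30, adjusted p = 0.270). Of the genes of this list and Errfi1 and Lrig1 that were tested, Errfi1 and Ptprj were the ones that rose.

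The transcripts that ERK signalling is known to induce gave no call without pairing by number: limma called 0 of 20. At an unadjusted p under 0.05 there were 6, all 6 lower, where 13.6% of all tested loci passed that threshold and 6.74% were lower. With libraries of the same sex and number taken as pairs, 7 of the 20 were called lower, against 2.57% of all tested loci. The list's median was −0.27 against −0.0067 over all tested loci. Spry2, Spry4, Spred1 and Spred2 stand both here and in the list before. Myc, a growth-promoting transcription factor, held 50.8 ± 11.4 FPKM under vehicle and 31.8 ± 8.77 under dexamethasone (SD, n = 6 each). Its log2 effect was −0.67 (adjusted p = 0.167, and 0.0106 to 0.52 over all alternatives). Fosl2, a subunit of AP-1, held 4.87 ± 1.22 and 3.00 ± 0.590 FPKM (log2 effect −0.54, adjusted p = 0.175, and 0.0121 to 0.384 over all alternatives). Not every gene of the list was lower: Dusp6 held 115 ± 35.1 and 151 ± 36.6 FPKM (log2 effect 0.42, adjusted p = 0.479). Etv5 held 166 ± 19.6 and 184 ± 34.8 FPKM (log2 effect 0.13, adjusted p = 0.692), and the effect on Etv4 was −0.011 (adjusted p = 0.987). Ccnd1, the cyclin of the G1 phase and the most abundant gene of the list, stood at 452 FPKM over the 12 libraries.

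**Figure D5:**
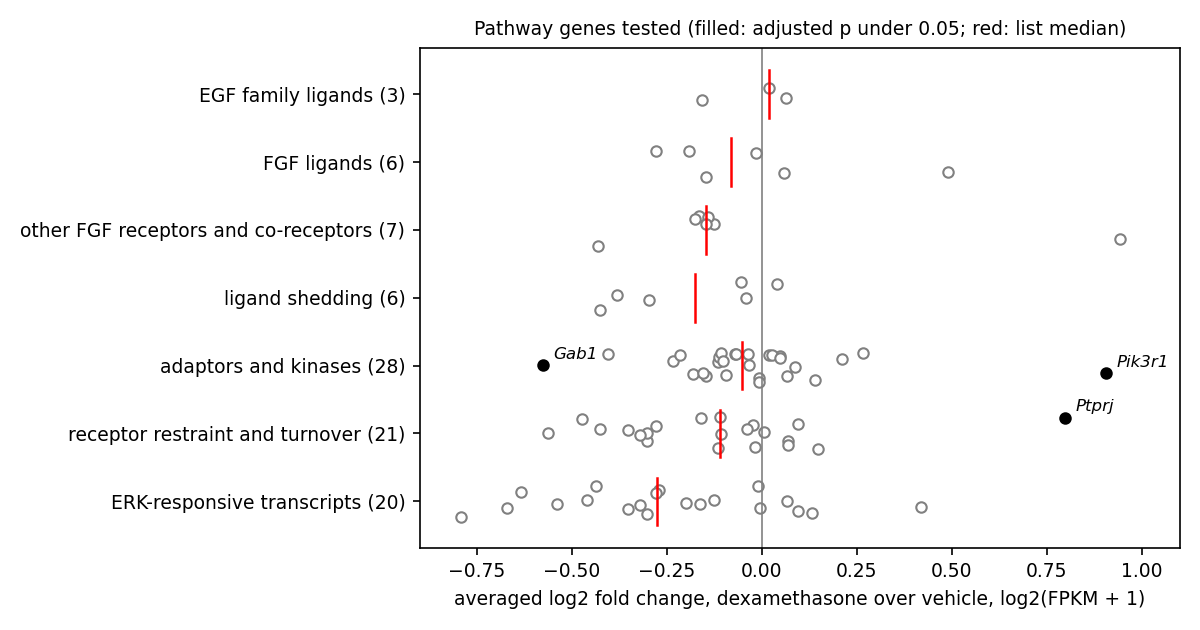
Averaged log2 effect of dexamethasone on the tested genes of the 7 pathway lists, 1 row per list, with a red mark at the list's median; filled points passed the limma test at an adjusted p under 0.05. Pik3r1 (0.91), Gab1 (−0.58) and Ptprj (0.80) are the filled points, and the median of the ERK-responsive transcripts lies at −0.27.

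Markers of cell types that such cultures can hold were read beside these results. Of the 11 neural stem cell markers, 2 were called lower: Msi1 (log2 effect −0.64, adjusted p = 0.0151) and Nr2e1 (−0.57, adjusted p = 0.0475). For this count and those of the other marker lists, the shares over all tested loci were 1.15% higher and 0.388% lower. The Nr2e1 call was close to the threshold, and the marker calls were not repeated with libraries left out. Of 7 astrocyte markers 1 rose, the gap junction gene Gjb6 (2.17, adjusted p = 0.0153). Its vehicle libraries, at 0.0311 to 1.83 FPKM, overlapped those under dexamethasone, at 1.37 to 8.74 FPKM. The summed level of the astrocyte list was 237 to 552 FPKM under vehicle and 317 to 880 under dexamethasone. Most of that sum was Aldoc, at 319 ± 73.7 FPKM under vehicle and 483 ± 130 under dexamethasone (SD, n = 6 each). Its log2 effect was 0.58 (adjusted p = 0.287). Gfap and Aqp4, which define astrocytes, were not called, but both differed widely between libraries. Gfap ran from 1.15 to 78.0 FPKM over the 12 libraries (log2 effect 0.66, SE 1.00) and Aqp4 from 2.29 to 34.9 FPKM (−0.11, SE 0.58). Whether the astrocyte share changed cannot be told from them. Of 7 tested oligodendrocyte-lineage markers 1 rose, Cspg4 (0.76, adjusted p = 0.0114), with sums of 338 to 423 and 330 to 436 FPKM. Olig1 (211 FPKM over the 12 libraries) and Olig2 (133) made up most of these sums, while Mbp stood at 3.14 FPKM. None of the 4 tested neuron markers was called by limma (0 at an unadjusted p under 0.05), with sums of 229 to 350 and 251 to 322 FPKM. Nearly all of these sums was Map2, at 274 FPKM over the 12 libraries. Tubb3 stood at 4.98, Snap25 at 2.43 and Dcx at 0.581 FPKM, and Slc17a6 is listed at 0 throughout. The summed level was at most 0.981 FPKM for microglial and 1.94 FPKM for endothelial markers in any library. Mural and fibroblast markers summed to 16.0 to 44.7 FPKM under vehicle and 20.3 to 37.4 under dexamethasone, nearly all of it Acta2. The part of these markers in the changes of Errfi1, Egfr, Pik3r1, Gab1 and Ptprj was not tested.

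The genes whose pattern over the 12 libraries was most like that of Errfi1 were Rhob, Tekt4, Mertk, Rasgef1c and Sap30. Likeness was the root mean square difference of centred log2(FPKM + 1) values, which came to 0.18, 0.19, 0.21, 0.23 and 0.24 in that order, against a spread of Errfi1 itself of 0.81 (SD on the same scale). Their averaged log2 effects were 1.51, 1.58, 1.80, 1.39 and 1.12. Tekt4 and Rasgef1c were near 1 FPKM, so their likeness rests on low values. All 12 libraries and the same treatment contrast underlie this ranking, which is a description.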

How the data were processed

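Total RNA of 12 neurosphere libraries was sequenced with a stranded kit, per the labels' protocols, each library on 2 lanes. The authors deposited FPKM per locus. The submitters' processing notes name TopHat2 2.0.9, Cufflinks (2.2.1), Cuffdiff (2.2.1) and the build GRCm38. Annotation release, strand setting and library scaling are not stated in the sources used here, which leaves antisense and joined loci (930 of 40597) uncertain. Gene coordinates are those of GENCODE M21, matched by identifier for 36163 loci.

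The test was limma (3.58.1, in R 4.3.3) on log2(FPKM + 1), with 1 mean per group over all 12 libraries and a trended eBayes step. Loci averaging 1 FPKM or more entered, 14931 in all. Tests were two-sided, with Benjamini-Hochberg adjustment over all of these and calls at an adjusted p under 0.05. Every adjusted p is from limma. The averaged effect weighs both sexes equally.

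Members and lists were chosen with earlier results of these data known. From each pathway list the text names every called gene, the most abundant one and the 2 with the smallest p. Of the ERK-responsive transcripts, Dusp6, Etv5 and Etv4 are named besides, as genes that did not fall. The 5 genes most like Errfi1 had the smallest root mean square difference. Alternatives were other pseudocounts, filters, scalings, weights, fits and left-out libraries.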

Additional observations from a re-analysis of the deposited data

How the results depend on the processing

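The 44 effects followed gene by gene were recomputed under 1074 alternatives in all: 985 kept direction and side of the threshold, 48 lost the call, 18 gained it and 23 changed sign. The absolute depth is unknown, so how much of the spread between libraries at low loci such as Erbb2 is counting error cannot be told.

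The count of members called in the averaged comparison, 2 as reported, was 1 with no filter, 1 with libraries rescaled to the same sum over named loci, 1 in each omission of 2 libraries, and 1 to 2 with 1 library left out. In males the count of 1 became 0 with no filter, 0 under that rescaling, 0 with only the 2 groups compared in the fit, 0 in each omission of 2 libraries and 0 to 1 with 1 library left out. In females it became 0 with only the 2 groups compared and 0 to 1 with 1 library left out. The interaction and the comparisons of the sexes called 0 members throughout. That rescaling moved the median of all loci to −0.19, against which the averaged effect was 1.27 for Errfi1 and −0.57 for Egfr (adjusted p = 0.166); it ended the calls of Errfi1 in males (0.0717), Gab1 (0.0731), Pik3r1 (0.197) and Ptprj (0.0967), and changed the 171 higher and 58 lower calls over all loci to 73 and 45. The cause was not tested.

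With the replicate number as a block within each sex, 5 members were called in the averaged comparison, 2 higher and 3 lower: Errfi1 (adjusted p = 0.00629), Fgfr3 (0.0307), Egfr (0.0210), Erbb2 (0.0234) and Hbegf (0.00861). In males 2 were called and in females 2, Errfi1 and Hbegf in each. The block raised the calls over all loci from 229 to 804 (5.38%), from 47 to 148 in males and from 72 to 187 in females, ended the call of Gab1 (0.0512) and called 7 of the 20 ERK-responsive transcripts and 2 of the 21 restraint and turnover genes (Nf1 and Spred2) lower, against 2.57% of all loci. Same-numbered libraries correlated at 0.0819 to 0.167 in their deviations from the group means, over 0.1 in 4 of 6 pairs. Differently numbered ones correlated at −0.147 to 0.0338, and 12 of 12 libraries correlated best with their own number. The submitters' sample letters also set each dexamethasone library beside the vehicle library of its sex and number. Both are hints, and no label states a shared culture, litter or day.

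Counts over all loci moved by over 1.5 times elsewhere too. The averaged count of 229 became 118 under the rescaling, 114 and 104 in the omissions of 2 libraries and 146 without female dexamethasone library 1. The male count of 47 became 25 under the rescaling, 95 with array weights, 18 with only the 2 groups compared, 19 and 14 in the omissions of 2 libraries and 28 to 31 without 1 male vehicle library. The female count of 72 became 27 with the rescaling, 33 with only the 2 groups compared and 31 to 45 without female vehicle library 3 or female dexamethasone library 1 or 3.

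Sign changes touched loci with effects near 0. Under the rescaling the averaged effect became −0.19 for Erbb4 and −0.15 for the Fgfr2 and Zranb1 locus, −0.14 for Erbb4 in males and −0.098 for the Fgfr2 and Zranb1 locus in females. With array weights Erbb4 was at −0.011 averaged, −0.072 in males and 0.051 in females, and without male dexamethasone library 2 and male vehicle library 3 it was −0.0054 averaged. With 1 library left out Erbb4 ran from −0.054 to 0.076 averaged, −0.082 to 0.17 in males and −0.12 to 0.11 in females, the Fgfr2 and Zranb1 locus from −0.0071 to 0.093 averaged and −0.044 to 0.015 in males, and the Ctbp2 and Fgfr2 locus from −0.19 to 0.026 in females.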
